A study of Mus musculus with 12 samples.

Results

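The constitutive proteasome genes described here were those whose symbol starts with Psma, Psmb, Psmc, Psmd, Psme, Psmf or Psmg in the array annotation, without the interferon-inducible Psmb8, Psmb9, Psmb10, Psme1 and Psme2. There were 45 of them among the 18193 genes with a probe set of their own. The rule goes by symbol and uses no expression value of these genes, but it was chosen with earlier results of these data known. The 45 genes have 98 probe sets of their own, with 19 genes having 1 and 26 having several, and each gene was represented by its probe set of highest mean log2 signal. No filter on low signal was applied, so all 45 were tested. The mean signal of 43 lay above the median of all genes (6.12 on the log2 scale), and that of Psma8 and Psmb11 lay below it. Psme2b, which the rule also covers, occurs only in a probe set that names several genes and was not analysed here.

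RNA was taken from bone marrow-derived macrophages (BMDMs), grown from marrow with M-CSF, of Nos2-/- mice (B6.129P2-Nos2tm1Lau/J), which lack the inducible NO synthase in all their cells, and of WT mice (C57BL/6), matched for age and sex and 6 to 10 weeks old. Cells were stimulated for 8 h with LPS at 100 ng/mL and IFNγ at 50 ng/mL, or left untreated (given PBS and kept as long, in the words of the methods, but sampled ahead of stimulation in those of the labels). There were 3 arrays, labelled as biological replicates, in each of 4 groups, which were stimulated Nos2-/-, stimulated WT, untreated Nos2-/- and untreated WT. The deposited values are log2 signals, and the number of arrays limits their precision.

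The proteasome degrades proteins that carry ubiquitin chains. Its barrel-shaped core has outer rings of alpha subunits, which gate the entrance, and inner rings of beta subunits, some of which are the proteases. A cap made of a base, with a ring of ATPases that unfolds substrates, and a lid, which removes ubiquitin, binds the core, and dedicated chaperones that are not kept in the finished particle help to assemble core and cap. In macrophages, interferon induces immunoproteasome subunits that take the places of the catalytic beta subunits and favour peptides for antigen presentation.

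Within a group the arrays correlated at 0.996 or above, and their medians ran between 5.14 and 5.21. Nos2 itself had log2 signals of 7.74, 7.45 and 7.88 in stimulated Nos2-/-, 9.73, 9.81 and 9.64 in stimulated WT, 5.15, 5.41 and 5.36 in untreated Nos2-/- and 5.45, 5.40 and 5.65 in untreated WT BMDMs. Whether the Nos2 probe set falls inside the deletion is not given in the sources used here, so these values do not check the genotypes. All 8 macrophage markers listed were above the median of all genes, with a summed level between 16.11 and 16.19 on the log2 scale in all 12 arrays. Single markers were less steady than this sum, as stimulation raised 2 of the 8 and lowered 5 in each genotype by limma. Markers of B cells, dendritic cells, mast cells, fibroblasts and erythroid cells were all below that median, and 1 of 5 T and NK cell markers was above it. The 6 measured markers of neutrophils and their precursors summed to 12.87 to 12.93 in stimulated Nos2-/-, 12.50 to 12.56 in stimulated WT, 10.16 to 10.79 in untreated Nos2-/- and 9.87 to 10.47 in untreated WT BMDMs. Of these markers, S100a8, S100a9, Camp and Ngp were above the median of all genes, the granule enzymes Mpo and Elane were below it, and none of the 6 was called between the stimulated genotypes. The 3 megakaryocyte markers summed to 10.95 to 11.22 in stimulated Nos2-/-, 11.23 to 11.53 in stimulated WT, 12.59 to 12.71 in untreated Nos2-/- and 12.61 to 12.80 in untreated WT BMDMs. Pf4 made up nearly all of this sum. In such bulk RNA, fewer cells of a type and less RNA per cell cannot be told apart, and the part of these markers in the results below was not tested.

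The first question was how the proteasome genes responded to stimulation. In both genotypes most alpha subunits, the catalytic subunits Psmb6 and Psmb7 and several cap subunits rose by modest amounts, while all 4 chaperones of core assembly fell, Psmg2 by about 2 on the log2 scale. In Nos2-/- BMDMs, 20 of the 45 genes rose, 13 fell and 12 did not pass the test at a Benjamini-Hochberg adjusted p under 0.05 from limma. In WT BMDMs, 25 rose, 8 fell and 12 did not pass. Over all 18193 genes, the shares called in Nos2-/- BMDMs were 26.3% higher and 28.2% lower, against 44.4% and 28.9% of the proteasome genes. In WT BMDMs the shares over all genes were 29.6% higher and 28.4% lower, against 55.6% and 17.8% of the proteasome genes. These shares count all 45 genes of the rule, including Psmc3ip and Psme3ip1, which are not proteasome subunits, and the dim Psma8 and Psmb11. The median log2 fold change of the proteasome genes was 0.09 in Nos2-/- BMDMs (0.05 over all genes) and 0.21 in WT BMDMs (0.07 over all genes).

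Most proteasome genes are bright on these arrays, so the brighter genes are a second yardstick. Of the 9097 genes above the median signal, 32.3% were called higher and 48.7% lower in Nos2-/- BMDMs, with a median of −0.14. For WT BMDMs these values were 31.8%, 49.5% and −0.15. The p-values of the brighter genes were adjusted over them alone, whereas those of the proteasome genes above were adjusted over all genes. The direction of small changes also depended on how the arrays were scaled. With each array centred on its median, the median change over all genes became 0.17 in Nos2-/- and 0.18 in WT BMDMs, and the calls became 8090 higher and 4377 lower in Nos2-/- (4788 and 5134 without centring) and 8316 higher and 4527 lower in WT (5393 and 5166 without centring). The proteasome genes were then 25 higher and 6 lower in Nos2-/- and 29 higher and 5 lower in WT BMDMs.

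The 2 responses mostly called the same genes. Of the 45 genes, 19 rose in both genotypes, 8 fell in both and 6 were called in neither, and no gene was called in opposite directions. Psmf1 counts among the 19 by its brightest probe set alone, and other probe sets of Psmf1 went the other way, as given below. Psmd9 was called higher in Nos2-/- BMDMs alone. Psmb1, Psmb3, Psmc3, Psmd1 and Psmd14 were called lower in Nos2-/- BMDMs alone, and Psmb2, Psmb5, Psmc2, Psmc6, Psmd5 and Psmd8 were called higher in WT BMDMs alone. Being called in 1 genotype alone does not show a difference between them, and that difference was tested as such further on. The map of all 45 genes over the 12 arrays shows these patterns gene by gene.

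**Figure D1:**
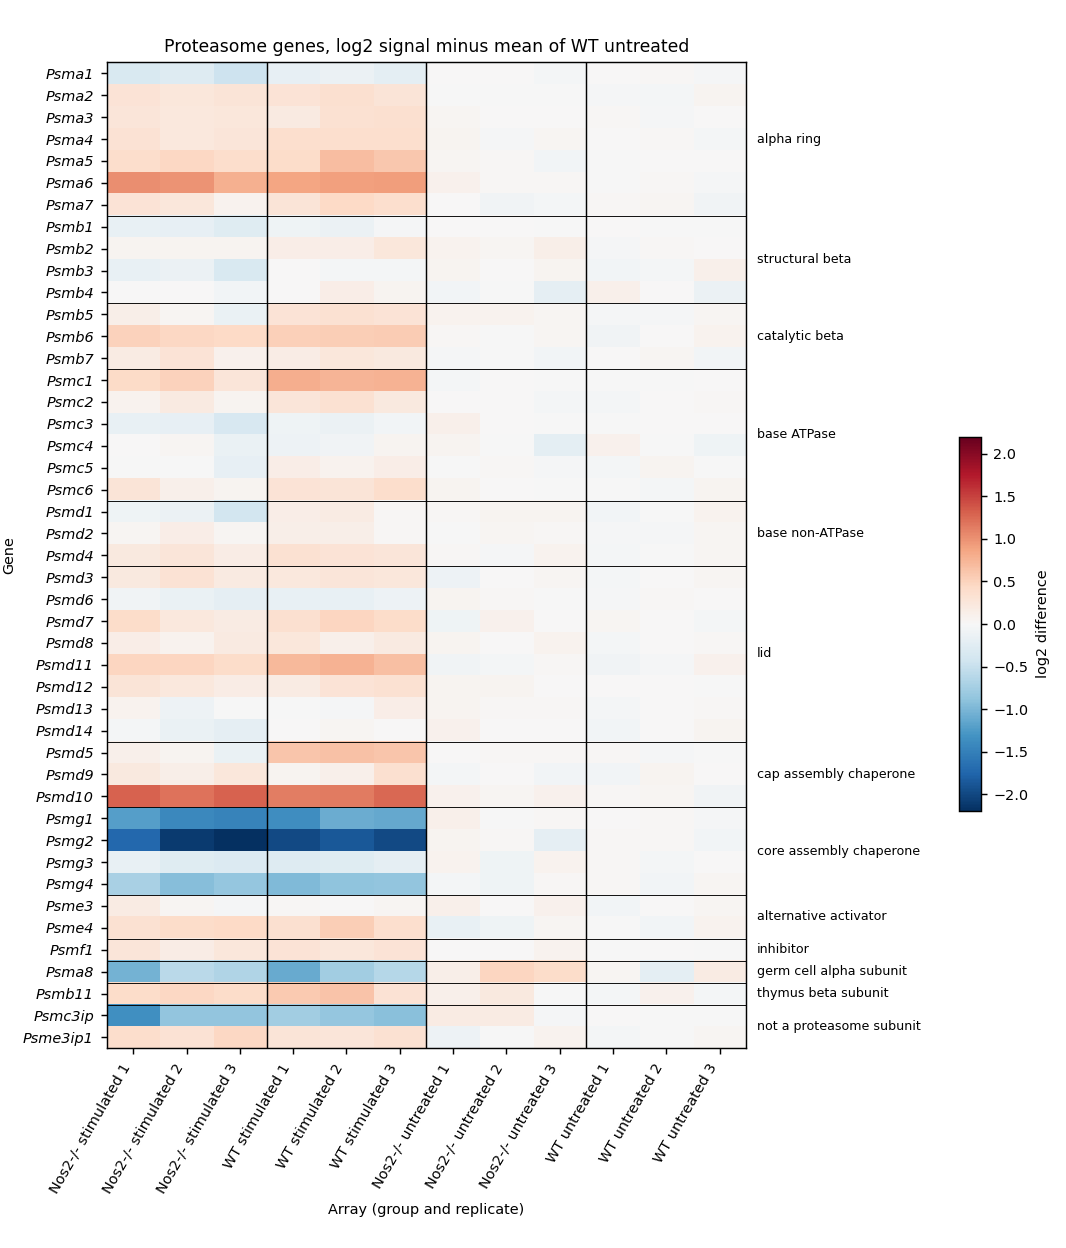
Log2 signal of each of the 45 proteasome genes (down the page, grouped by role) on each of the 12 arrays (across, by group and replicate), as the difference from the mean of the 3 untreated WT arrays. Psmd10 and Psma6 stand out as higher and Psmg1, Psmg2, Psmg4, Psma8 and Psmc3ip as lower on all 6 stimulated arrays. By contrast, Psmd5 is high on the 3 stimulated WT arrays and near 0 on the 3 stimulated Nos2-/- arrays.

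Of the 7 alpha subunits that build the outer rings of the core, 6 rose in each genotype (Psma2 to Psma7) and Psma1 fell. The median of the 7 was 0.25 in Nos2-/- and 0.37 in WT BMDMs. Psma6 had log2 signals of 12.93, 12.90 and 12.70 in stimulated Nos2-/-, 12.77, 12.81 and 12.83 in stimulated WT, 12.01, 11.93 and 11.93 in untreated Nos2-/- and 11.91, 11.93 and 11.89 in untreated WT BMDMs. Every stimulated array lay above every untreated one, and the stimulated genotypes overlapped. Its log2 fold change was 0.89 in Nos2-/- BMDMs (95% CI 0.75 to 1.04, adjusted p = 4.48e-08 from limma) and 0.90 in WT BMDMs (95% CI 0.75 to 1.04, adjusted p = 4.64e-08 from limma). The others ran between 0.22 (Psma3) and 0.41 (Psma5) in Nos2-/- BMDMs and between 0.30 (Psma3) and 0.56 (Psma5) in WT BMDMs. With quantile normalization, Psma3 and Psma7 were at 0.10 and 0.17 in Nos2-/- BMDMs and not called. Psma1 fell by 0.35 on the log2 scale in Nos2-/- and by 0.17 in WT BMDMs, and with the mean of all probe sets neither fall was called (−0.17 in Nos2-/- and −0.16 in WT BMDMs). The fall in WT BMDMs was also lost with each array centred on its median (−0.07) and without replicate 1 or 2 of untreated WT or replicate 1 or 3 of stimulated WT (−0.18 to −0.15). Psma8, the alpha subunit of germ cells, was dim, with log2 signals of 3.69, 4.13 and 4.07 in stimulated Nos2-/-, 3.62, 3.95 and 4.10 in stimulated WT, 4.85, 5.20 and 5.12 in untreated Nos2-/- and 4.77, 4.50 and 4.90 in untreated WT BMDMs. All 6 stimulated arrays were below all 6 untreated ones, by 1.09 on the log2 scale in Nos2-/- (standard error 0.15) and 0.83 in WT BMDMs (standard error 0.15).

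The 3 constitutive proteases of the core, which the immunoproteasome subunits replace, did not respond alike. Psmb5, which carries the chymotrypsin-like activity, had log2 signals of 11.81, 11.73 and 11.54 in stimulated Nos2-/-, 11.98, 12.01 and 11.98 in stimulated WT, 11.75, 11.75 and 11.72 in untreated Nos2-/- and 11.66, 11.65 and 11.73 in untreated WT BMDMs. The stimulated WT arrays were the highest of the 4 groups and overlapped none of the others, whereas the stimulated Nos2-/- arrays spread around the untreated ones. Its log2 fold change was −0.05 in Nos2-/- BMDMs (95% CI −0.20 to 0.10, not called) and 0.31 in WT BMDMs (95% CI 0.16 to 0.46, adjusted p = 0.00166 from limma). Psmb6, which carries the caspase-like activity, had log2 signals of 11.81, 11.76 and 11.73 in stimulated Nos2-/-, 11.82, 11.84 and 11.86 in stimulated WT, 11.32, 11.29 and 11.34 in untreated Nos2-/- and 11.22, 11.30 and 11.37 in untreated WT BMDMs. All stimulated arrays were above all untreated ones, with log2 fold changes of 0.45 in Nos2-/- (standard error 0.06) and 0.55 in WT BMDMs (standard error 0.06). Psmb7, which carries the trypsin-like activity, had log2 signals of 10.84, 10.96 and 10.75 in stimulated Nos2-/-, 10.83, 10.92 and 10.88 in stimulated WT, 10.64, 10.65 and 10.60 in untreated Nos2-/- and 10.68, 10.70 and 10.61 in untreated WT BMDMs. It was again higher on every stimulated array, by 0.22 in Nos2-/- and 0.21 in WT BMDMs, and both changes were called. The call in Nos2-/- BMDMs was lost without replicate 2 of stimulated Nos2-/- (0.16), and that in WT BMDMs with quantile normalization (0.15) and without replicate 3 of untreated WT (0.19).

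The 4 beta subunits without protease activity changed little. In Nos2-/- BMDMs, Psmb1 fell by 0.21 and Psmb3 by 0.26 on the log2 scale, and Psmb2 and Psmb4 were at −0.02 and 0.08 without passing the test. In WT BMDMs, Psmb2 rose by 0.18, and Psmb1, Psmb3 and Psmb4 were at −0.08, −0.02 and 0.08 without passing it. Both falls in Nos2-/- BMDMs were lost with each array centred on its median (−0.09 for Psmb1 and −0.14 for Psmb3), and that of Psmb3 also with the mean of all probe sets (−0.07). The rise of Psmb2 in WT BMDMs was lost with quantile normalization (0.11), without replicate 3 of stimulated WT (0.14) and without replicate 1 of untreated WT (0.16). Psmb11, the beta subunit of the thymus, was dim, with log2 signals of 4.40, 4.45 and 4.40 in stimulated Nos2-/-, 4.58, 4.62 and 4.32 in stimulated WT, 4.11, 4.22 and 3.99 in untreated Nos2-/- and 3.95, 4.09 and 3.95 in untreated WT BMDMs. Its stimulated arrays were all above its untreated ones, and it was called higher in both genotypes, by 0.31 in Nos2-/- and 0.51 in WT BMDMs.

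Among the 6 ATPases of the base, Psmc1 moved most. It had log2 signals of 10.28, 10.38 and 10.14 in stimulated Nos2-/-, 10.66, 10.62 and 10.63 in stimulated WT, 9.82, 9.87 and 9.86 in untreated Nos2-/- and 9.86, 9.86 and 9.88 in untreated WT BMDMs. The stimulated arrays of both genotypes were above the untreated ones, and those of Nos2-/- lay wholly below those of WT. Psmc1 rose by 0.42 in Nos2-/- BMDMs (95% CI 0.28 to 0.56, adjusted p = 8.31e-05 from limma) and by 0.77 in WT BMDMs (95% CI 0.62 to 0.91, adjusted p = 1.87e-07 from limma). Psmc3 fell by 0.27 in Nos2-/- BMDMs and was at −0.10 in WT BMDMs, where it did not pass the test, and with each array centred on its median its fall in Nos2-/- BMDMs was lost (−0.15). Psmc2 and Psmc6 were at 0.12 and 0.13 in Nos2-/- BMDMs, neither called, and rose by 0.28 and 0.32 in WT BMDMs. With the mean of all probe sets, Psmc6 was at 0.15 in WT BMDMs and no longer called. Psmc4 and Psmc5 were called in neither genotype, at 0.02 and −0.06 in Nos2-/- and −0.04 and 0.12 in WT BMDMs.

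The other 3 subunits of the base include the large scaffolds Psmd1 and Psmd2 and the ubiquitin receptor Psmd4. Psmd4 rose by 0.19 in Nos2-/- and 0.31 in WT BMDMs, and the call in Nos2-/- BMDMs was lost with quantile normalization (0.10) and without replicate 2 of stimulated or of untreated Nos2-/- (0.17 each). Psmd1 fell by 0.25 in Nos2-/- BMDMs and was at 0.11 in WT BMDMs without passing the test, and Psmd2 was at 0.05 in Nos2-/- and 0.10 in WT BMDMs, called in neither. The fall of Psmd1 was lost without replicate 3 of stimulated Nos2-/- (−0.16, adjusted p = 0.0763 from limma) and with each array centred on its median (−0.13).

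Of the 8 lid subunits, 4 rose and 2 fell in Nos2-/- BMDMs, and 5 rose and 1 fell in WT BMDMs. Psmd11 had log2 signals of 11.36, 11.35 and 11.28 in stimulated Nos2-/-, 11.59, 11.65 and 11.55 in stimulated WT, 10.80, 10.83 and 10.91 in untreated Nos2-/- and 10.81, 10.86 and 10.97 in untreated WT BMDMs. The stimulated arrays were above the untreated ones in both genotypes, and the 3 of Nos2-/- were below the 3 of WT. The rise was 0.48 in Nos2-/- BMDMs (95% CI 0.34 to 0.62, adjusted p = 1.52e-05 from limma) and 0.72 in WT BMDMs (95% CI 0.58 to 0.85, adjusted p = 2.76e-07 from limma). With probe sets ending in _s_at and _x_at left out, another probe set stood for Psmd11, and the rise was then 0.04 in Nos2-/- BMDMs (adjusted p = 0.686 from limma, not called) and 0.39 in WT BMDMs. Psmd3, Psmd7 and Psmd12 rose in both genotypes, by 0.26, 0.28 and 0.18 in Nos2-/- and 0.24, 0.41 and 0.27 in WT BMDMs. The call of Psmd12 in Nos2-/- BMDMs was lost with only the arrays compared (0.18) and without replicate 1 or 2 of stimulated or replicate 1 or 3 of untreated Nos2-/- (0.16 to 0.19). Psmd8 was at 0.09 in Nos2-/- BMDMs, not called, and rose by 0.18 in WT BMDMs, a call lost with quantile normalization (0.09) and without replicate 1 of stimulated WT or replicate 1 or 2 of untreated WT (0.15 to 0.19). Psmd6 fell by 0.18 in Nos2-/- and 0.15 in WT BMDMs, and both calls were lost with each array centred on its median (−0.05 in each). Leaving out 1 array also ended the call of Psmd6, for replicate 3 of stimulated and replicate 1 of untreated Nos2-/- in the Nos2-/- response (−0.15 and −0.16), and in the WT response for replicates 1 and 2 of stimulated WT and of untreated Nos2-/- and each replicate of untreated WT (−0.16 to −0.14). Psmd14, the deubiquitinase of the lid, fell by 0.17 in Nos2-/- BMDMs and was at 0.03 in WT BMDMs, not called, and its fall was likewise lost with centring (−0.04) and without replicate 2 or 3 of stimulated Nos2-/-, any replicate of untreated Nos2-/- or replicate 2 of untreated WT (−0.18 to −0.13). Psmd13 was called in neither genotype, at −0.05 in Nos2-/- and 0.04 in WT BMDMs.

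The chaperones that help to assemble the base of the cap each behaved differently. Psmd10, also known as gankyrin, had log2 signals of 10.87, 10.76 and 10.86 in stimulated Nos2-/-, 10.70, 10.71 and 10.83 in stimulated WT, 9.66, 9.61 and 9.66 in untreated Nos2-/- and 9.59, 9.62 and 9.50 in untreated WT BMDMs. All stimulated arrays were above all untreated ones, and the genotypes overlapped in each state. Psmd10 rose by 1.19 in Nos2-/- BMDMs (95% CI 1.05 to 1.32, adjusted p = 1.19e-09 from limma) and by 1.18 in WT BMDMs (95% CI 1.04 to 1.32, adjusted p = 1.41e-09 from limma), the largest rise of the 45 genes in both. Psmd5 had log2 signals of 8.94, 8.90 and 8.68 in stimulated Nos2-/-, 9.44, 9.47 and 9.45 in stimulated WT, 8.85, 8.86 and 8.86 in untreated Nos2-/- and 8.86, 8.81 and 8.83 in untreated WT BMDMs. The stimulated WT arrays stood alone at the top, and the other 9 arrays overlapped. Its log2 fold change was −0.02 in Nos2-/- BMDMs (95% CI −0.17 to 0.13, not called) and 0.62 in WT BMDMs (95% CI 0.47 to 0.77, adjusted p = 2.97e-06 from limma). Psmd9 rose by 0.23 in Nos2-/- BMDMs and was at 0.17 in WT BMDMs (adjusted p = 0.0784 from limma). The call of Psmd9 was lost with the mean of all probe sets (0.15) and without replicate 1 or 3 of stimulated or of untreated Nos2-/- (0.21 to 0.22).

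The chaperones of core assembly, which pair up to guide the alpha and beta rings together, fell in both genotypes, all 4 of 4. Psmg2 had log2 signals of 7.90, 7.51 and 7.21 in stimulated Nos2-/-, 7.63, 7.75 and 7.64 in stimulated WT, 9.68, 9.65 and 9.43 in untreated Nos2-/- and 9.65, 9.65 and 9.57 in untreated WT BMDMs. Psmg1, the partner of Psmg2, had log2 signals of 7.58, 7.38 and 7.32 in stimulated Nos2-/-, 7.42, 7.70 and 7.66 in stimulated WT, 8.91, 8.78 and 8.82 in untreated Nos2-/- and 8.79, 8.82 and 8.76 in untreated WT BMDMs. For both genes every stimulated array was more than 1 log2 unit below every untreated one, and the genotypes overlapped. Psmg2 fell by 2.04 in Nos2-/- BMDMs (95% CI −2.33 to −1.76, adjusted p = 8.06e-09 from limma) and by 1.95 in WT BMDMs (95% CI −2.23 to −1.66, adjusted p = 1.49e-08 from limma). Psmg1 fell by 1.41 in Nos2-/- (standard error 0.09) and 1.20 in WT BMDMs (standard error 0.09).

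Psmg3 and Psmg4 form the other pair. Psmg4 had log2 signals of 8.11, 7.89 and 7.97 in stimulated Nos2-/-, 7.85, 7.95 and 7.96 in stimulated WT, 8.79, 8.73 and 8.85 in untreated Nos2-/- and 8.85, 8.76 and 8.87 in untreated WT BMDMs. Psmg3 had log2 signals of 9.19, 9.09 and 9.05 in stimulated Nos2-/-, 9.07, 9.09 and 9.16 in stimulated WT, 9.43, 9.26 and 9.43 in untreated Nos2-/- and 9.38, 9.31 and 9.36 in untreated WT BMDMs. Stimulated and untreated arrays did not overlap for either gene, with a wide gap for Psmg4 and a narrow one for Psmg3. Psmg4 fell by 0.80 in Nos2-/- and 0.90 in WT BMDMs (standard error 0.07 each). Psmg3 fell by 0.26 in Nos2-/- and 0.25 in WT BMDMs, and with each array centred on its median neither fall was called (−0.14 in each).

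Activators that can replace the cap were represented by Psme3, which acts in the nucleus, and Psme4. Psme4 had log2 signals of 10.41, 10.48 and 10.51 in stimulated Nos2-/-, 10.43, 10.62 and 10.45 in stimulated WT, 9.92, 9.99 and 10.12 in untreated Nos2-/- and 10.07, 10.01 and 10.15 in untreated WT BMDMs. It was higher on every stimulated array, by 0.46 in Nos2-/- (adjusted p = 0.000114 from limma) and 0.42 in WT BMDMs (adjusted p = 0.000251 from limma). Psme3 had log2 signals of 8.46, 8.32 and 8.25 in stimulated Nos2-/-, 8.30, 8.28 and 8.31 in stimulated WT, 8.38, 8.29 and 8.37 in untreated Nos2-/- and 8.21, 8.29 and 8.32 in untreated WT BMDMs, and all groups overlapped. It was called in neither genotype, at −0.01 in Nos2-/- and 0.03 in WT BMDMs, but after quantile normalization it was called higher in both, at 0.16 and 0.23.

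Psmf1 encodes an inhibitor of the core. Its brightest probe set had log2 signals of 8.38, 8.27 and 8.36 in stimulated Nos2-/-, 8.41, 8.36 and 8.40 in stimulated WT, 8.11, 8.12 and 8.18 in untreated Nos2-/- and 8.10, 8.12 and 8.10 in untreated WT BMDMs. All stimulated arrays were above all untreated ones in this probe set, by 0.20 in Nos2-/- and 0.28 in WT BMDMs. The next 2 probe sets of Psmf1 in brightness went the other way, as described with the probe sets below, so no direction is given for this gene.

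The rule also takes in Psmc3ip and Psme3ip1, which are not proteasome subunits. Psmc3ip, which acts in meiotic recombination, had log2 signals of 5.45, 5.94 and 5.93 in stimulated Nos2-/-, 6.03, 5.96 and 5.88 in stimulated WT, 6.99, 6.99 and 6.77 in untreated Nos2-/- and 6.82, 6.79 and 6.80 in untreated WT BMDMs. Stimulated arrays lay below untreated ones throughout, and Psmc3ip fell by 1.15 in Nos2-/- and 0.85 in WT BMDMs (standard error 0.11 each). Psme3ip1, whose product binds Psme3, rose by 0.41 in Nos2-/- and 0.29 in WT BMDMs. The plot of both responses sets all 45 genes side by side.

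**Figure D2:**
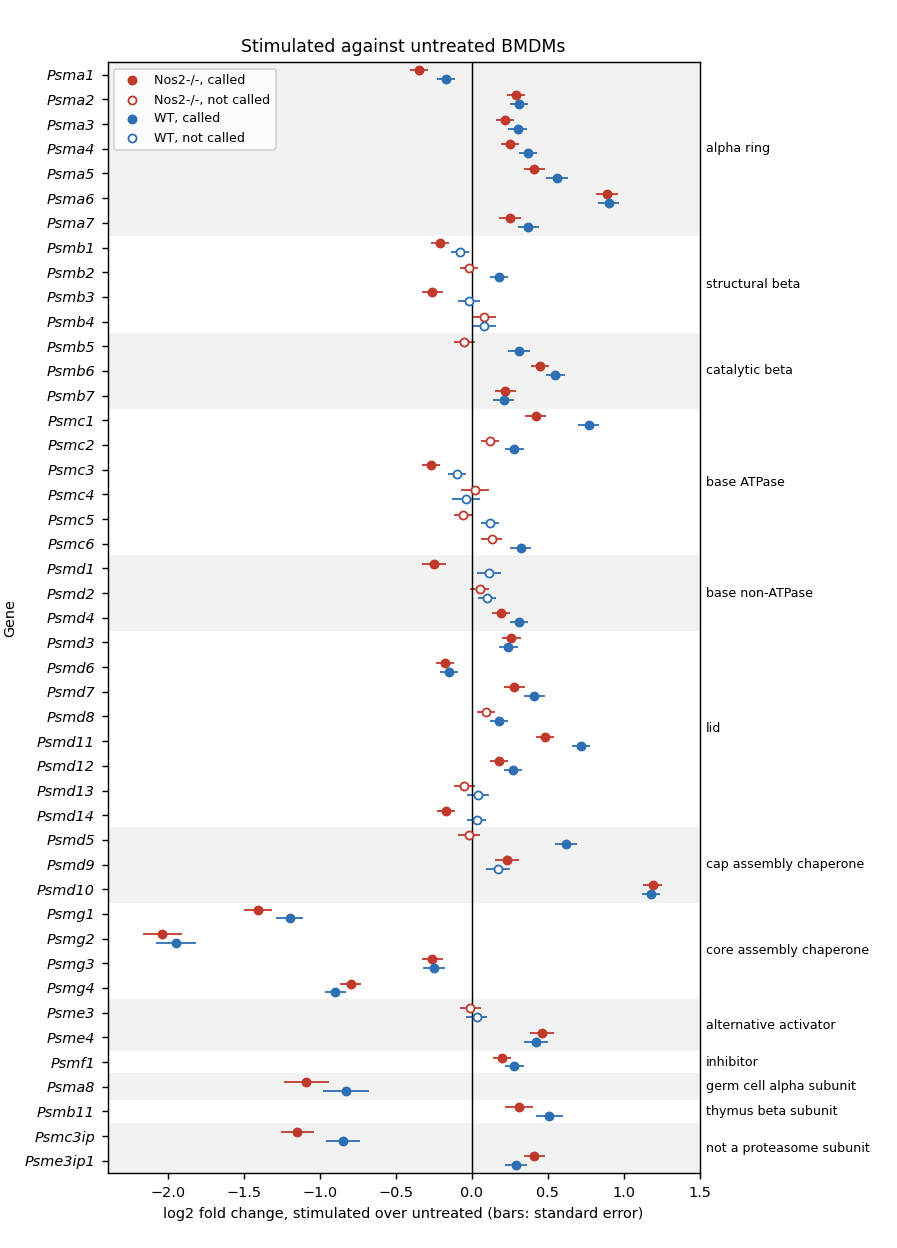
Log2 fold change of stimulated over untreated BMDMs (horizontal axis) for each of the 45 proteasome genes (down the page, grouped by role), in Nos2-/- (red) and WT (blue), with filled points called by limma and bars of 1 standard error. The 4 chaperones of core assembly lie to the left in both genotypes and Psmd10 furthest to the right, while Psmd5 is at −0.02 in Nos2-/- and 0.62 in WT.

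The second question was whether the proteasome genes differed between the stimulated genotypes. In stimulated BMDMs the Nos2-/- signals were slightly below the WT signals, with a median log2 fold change of −0.09 (−0.01 over all genes). Of the 45 genes, 36 were below 0, a count given here without the share over all genes. With each array centred on its median, the median was −0.06. Of the 45 genes, 4 passed the test, all lower, and these were Psmd5, Psmc1, Psmb5 and Psmd11. None was higher by limma, nor was any higher at an unadjusted p under 0.05, where 12 were lower. The share of all genes at this unadjusted p is not given here, so the 12 are not read as a result about the proteasome genes. Over all genes, 1.03% were called higher and 1.91% lower, against 0 and 8.89% of the proteasome genes. Among the 9097 brighter genes, with p-values adjusted over them alone, 3.61% were called higher and 5.17% lower.

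Psmd5 differed most. Its signals, given above, were lower on the 3 stimulated Nos2-/- arrays than on the 3 stimulated WT arrays without overlap, with means of 8.84 ± 0.14 in stimulated Nos2-/- and 9.45 ± 0.01 in stimulated WT BMDMs (SD, n = 3 each). Psmd5 was at −0.61 on the log2 scale (95% CI −0.76 to −0.46, adjusted p = 0.000179 from limma), which is 0.65 times the WT level, and it was called under 22 of 22 alternatives. These include leaving out each of the 12 arrays in turn. Psmd5 has 1 probe set, so the alternatives that change the probe sets left its signal as it was. Psmc1 was at −0.36 (95% CI −0.51 to −0.22, adjusted p = 0.00693 from limma) and was called under 19 of 22 alternatives. Psmb5 was at −0.30 (95% CI −0.45 to −0.15, adjusted p = 0.0344 from limma) and Psmd11 at −0.27 (95% CI −0.41 to −0.13, adjusted p = 0.0397 from limma). These last calls were less stable, under 9 of 22 alternatives for Psmb5 and 7 of 22 for Psmd11. Just outside the threshold lay Psmd1 at −0.32 (95% CI −0.50 to −0.15, adjusted p = 0.0508 from limma), which was called with quantile normalization (−0.33, adjusted p = 0.0349).

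**Figure D3:**
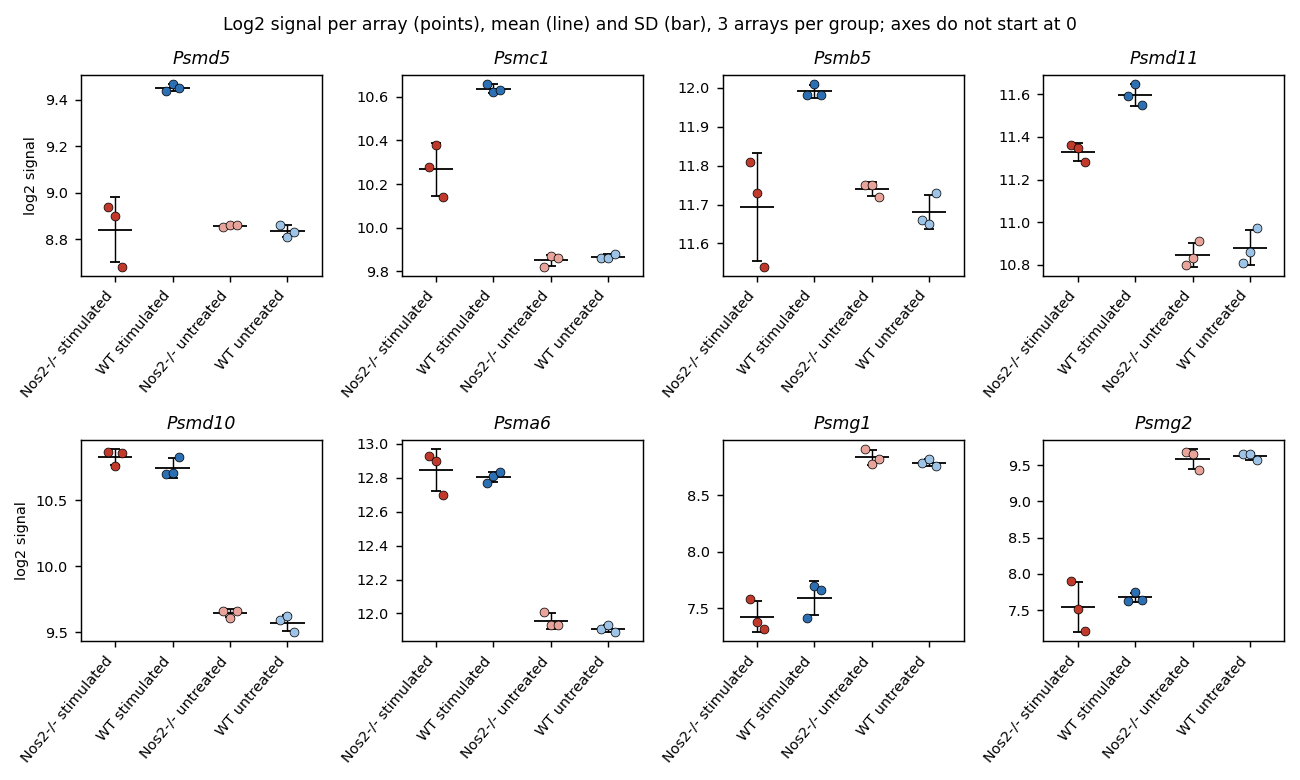
Log2 signal on each array (points) with the mean (line) and SD (bar) of the 3 arrays of each group for 8 proteasome genes, on axes that do not start at 0. For Psmd5, Psmc1, Psmb5 and Psmd11 the stimulated Nos2-/- arrays lie below the stimulated WT arrays, whereas for Psmd10, Psma6, Psmg1 and Psmg2 the stimulated genotypes overlap.

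A single array weighed on this comparison. Replicate 3 of stimulated Nos2-/- was the lowest of its group for 28 of the 45 genes and tied for lowest for 4 more, Psmd5, Psmc1, Psmb5 and Psmd11 among the 28. Without it, the median over the 45 genes was −0.06, and 2 genes stayed called, Psmd5 at −0.53 (adjusted p = 0.00031 from limma) and Psmc1 at −0.30 (adjusted p = 0.0222 from limma). Psmb5 was then at −0.22 and Psmd11 at −0.24, neither called. In the response of Nos2-/- BMDMs, leaving out this array gave 19 genes called higher and 10 lower. The summed neutrophil markers given above were higher in stimulated Nos2-/- than WT arrays. Most of that sum is S100a8, which averaged 12.67 in stimulated Nos2-/- and 12.27 in stimulated WT BMDMs. Between these groups S100a9, Camp, Ngp and Elane overlapped, and Mpo was narrowly higher in Nos2-/-. The part of these markers in the lower proteasome signals was not tested.

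By role, values below 0 occurred in most parts of the particle. The share of all genes below 0 is not given here, and the 45 genes share the same arrays. The counts of signs that follow are therefore not read as a result about these genes. All 8 lid subunits (Psmd3 and Psmd6 by less than 0.01), all 4 beta subunits without protease activity, all 3 proteases and all 3 non-ATPase subunits of the base were below 0, as were 5 of 6 ATPases of the base and 6 of 7 alpha subunits. The medians were −0.05 for the lid, −0.12 for the beta subunits without protease activity, −0.07 for the proteases, −0.09 for the non-ATPase base, −0.17 for the ATPases and −0.10 for the alpha ring, beside −0.01 over all genes. The assembly chaperones were divided, with Psmd5 called lower, Psmg1 and Psmg2 at −0.17 and −0.14, and Psmd10, Psmd9, Psmg3 and Psmg4 at 0.08, 0.02, 0.01 and 0.07, none of these 6 called. Of the 45 genes, 9 lie on chromosome 11, as Nos2 does, and the nearest is Psmd11, 21 protein-coding genes after Nos2 in the RefSeq annotation. The next are Psmb6, 192 genes before it, and Psmb3, 244 after it, and neither was called between the stimulated genotypes, at −0.07 and −0.19. Without the genes on chromosome 11, 3 were called lower. Whether sequence near Nos2 bears on Psmd11 was not tested.

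Promoter windows are shown for the 4 genes called lower in stimulated Nos2-/- BMDMs and for Psmd10, the gene with the largest rise, since these carry the comparisons above. Each is the RefSeq window of 300 bases on GRCm38.p6, from 250 bases before the start site to 50 after it, read 5′ to 3′ on the gene's strand. Capitals mark the letters TGACNNNGC, the core of the antioxidant response element, and CCAAT, the motif bound by NF-Y, found on either strand of the window (where CCAAT lies on the other strand it reads ATTGG). The motifs do not overlap in these windows.
Psmd5 (chr2:34870913-34871212, minus strand): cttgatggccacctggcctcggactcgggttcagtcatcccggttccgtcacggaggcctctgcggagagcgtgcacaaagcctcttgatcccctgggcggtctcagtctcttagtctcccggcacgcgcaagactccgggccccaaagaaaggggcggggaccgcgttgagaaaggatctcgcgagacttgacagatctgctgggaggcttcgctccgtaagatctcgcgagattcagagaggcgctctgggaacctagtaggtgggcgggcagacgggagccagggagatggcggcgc
Psmc1 (chr12:100109952-100110251, plus strand): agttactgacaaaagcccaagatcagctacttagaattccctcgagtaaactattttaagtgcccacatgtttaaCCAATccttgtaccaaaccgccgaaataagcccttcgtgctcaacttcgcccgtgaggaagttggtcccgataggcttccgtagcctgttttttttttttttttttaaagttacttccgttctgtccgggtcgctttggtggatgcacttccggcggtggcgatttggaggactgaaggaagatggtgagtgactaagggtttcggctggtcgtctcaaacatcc
Psmb5 (chr14:54617946-54618245, minus strand): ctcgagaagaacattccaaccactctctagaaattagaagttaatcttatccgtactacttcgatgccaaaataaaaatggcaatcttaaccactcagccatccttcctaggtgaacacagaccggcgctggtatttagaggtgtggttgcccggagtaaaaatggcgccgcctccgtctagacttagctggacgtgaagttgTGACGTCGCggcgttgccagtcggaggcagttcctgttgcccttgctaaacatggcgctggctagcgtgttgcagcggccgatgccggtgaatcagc
Psmd11 (chr11:80428365-80428664, plus strand): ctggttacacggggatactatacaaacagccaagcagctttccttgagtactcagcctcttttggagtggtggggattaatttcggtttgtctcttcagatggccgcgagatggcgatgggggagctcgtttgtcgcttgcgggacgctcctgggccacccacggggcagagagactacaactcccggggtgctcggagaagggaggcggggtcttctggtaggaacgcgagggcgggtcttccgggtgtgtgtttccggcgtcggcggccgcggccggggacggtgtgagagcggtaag
Psmd10 (chrX:140956662-140956961, minus strand): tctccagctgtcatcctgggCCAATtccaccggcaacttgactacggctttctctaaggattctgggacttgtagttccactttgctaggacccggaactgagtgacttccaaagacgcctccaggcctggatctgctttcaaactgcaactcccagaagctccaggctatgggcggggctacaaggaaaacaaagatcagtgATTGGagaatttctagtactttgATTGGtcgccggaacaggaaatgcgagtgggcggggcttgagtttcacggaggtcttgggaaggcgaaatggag
The window of Psmb5 holds TGACGTCGC at position −47 from the start site, that of Psmc1 holds CCAAT at −175, and that of Psmd10 holds CCAAT at −230 and its complement at −47 and −24. Neither motif has these letters in the windows of Psmd5 and Psmd11. Of the 45 genes, 37 matched a window in the RefSeq table, 40 windows in all. TGACNNNGC was in 15% of these 40 windows and in 12.4% of the 32851 windows of all genes, and CCAAT was in 37.5% and 37.4%. The other genes with TGACNNNGC were Psmb6, Psmc6, Psmd9, Psmd12 and Psme4, of which none was called between the stimulated genotypes. Such matches describe letters only.

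Between the untreated genotypes the proteasome genes did not differ detectably with 3 arrays a group. None of the 45 was called by limma, and at an unadjusted p under 0.05 there was 1 higher, Psma8 at 0.33 (95% CI 0.01 to 0.65), and none lower. Over all genes, 0.0055% were called higher and 0.0055% lower. The log2 fold changes of the 45 genes ran between −0.09 and 0.33, with a median of 0.02. Psmd5 was at 0.02 (95% CI −0.13 to 0.17), Psmc1 at −0.02 (95% CI −0.16 to 0.13), Psmb5 at 0.06 (95% CI −0.09 to 0.21) and Psmd11 at −0.03 (95% CI −0.17 to 0.10).

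**Figure D4:**
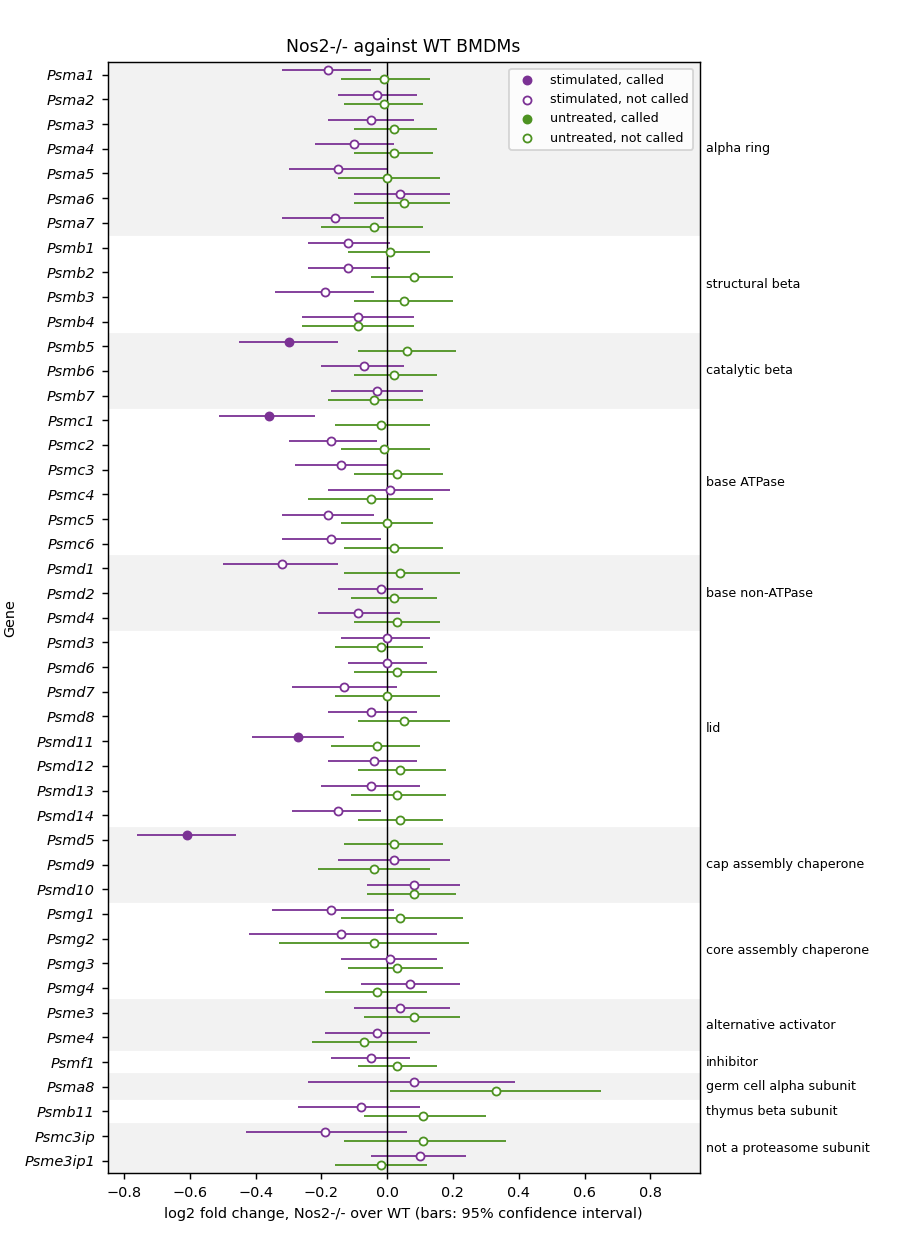
Log2 fold change of Nos2-/- over WT BMDMs (horizontal axis) for each of the 45 proteasome genes (down the page, grouped by role), stimulated (purple) and untreated (green), with filled points called by limma and bars of the 95% confidence interval. The stimulated values lie mostly left of 0, with Psmd5 at −0.61, and the untreated values around 0.

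The difference between the responses of Nos2-/- and WT BMDMs was then tested itself. It was called for 1 of the 45 genes, Psmd5, whose response was lower in Nos2-/- by 0.64 on the log2 scale (95% CI −0.85 to −0.43, adjusted p = 0.00531 from limma). That call was made under 21 of 21 alternatives, and without replicate 3 of stimulated Nos2-/- the difference was −0.56. Over all genes, 0.302% were called with a higher and 0.676% with a lower response in Nos2-/-, against 0 and 2.22% of the proteasome genes. No gene had a higher response by limma, nor at an unadjusted p under 0.05, where 8 had a lower one. As the share of all genes at this unadjusted p is not given here, the 8 are not read as a result about these genes. The median over the 45 genes was −0.11 (−0.01 over all genes), and 36 were below 0, a count also without its share over all genes. The next in size were Psmd1 at −0.37 (adjusted p = 0.22 from limma), Psmb5 at −0.36 (adjusted p = 0.146) and Psmc1 at −0.35 (adjusted p = 0.131), none of them called. This comparison shares its stimulated arrays with the one between the stimulated genotypes, so their like direction is not a second observation.

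For the 26 genes with several probe sets, these could be set beside each other. Tested one by one over the whole array, 40 of the 98 probe sets were called higher and 19 lower in Nos2-/- BMDMs, and 49 higher and 14 lower in WT BMDMs. For none of the probe set counts here is the share over all single-gene probe sets given, so they are not read as results about these genes. Psmf1 was the only gene with probe sets called both ways. Its brightest was at 0.20 in Nos2-/- and 0.28 in WT BMDMs, the next at −0.46 in Nos2-/- and −0.60 in WT BMDMs, the third at −0.31 in Nos2-/- and −0.41 in WT BMDMs, and the dimmest at 0.10 and 0.09 without a call. Psmb3 and Psmc4 each have a second probe set with a higher value than the one used, at 0.12 in Nos2-/- and 0.34 in WT BMDMs for Psmb3 and at 0.18 in Nos2-/- and 0.35 in WT BMDMs for Psmc4. Between the stimulated genotypes, 4 of the 98 probe sets were called, all lower. The 4 brightest of the 8 probe sets of Psmd11 were at −0.27, −0.28, −0.27 and −0.18, and with p-values adjusted over all probe sets the brightest missed the threshold (adjusted p = 0.0517 from limma) while the third passed it (adjusted p = 0.0374). The dimmer ones are not given here, and with the mean of all 8 Psmd11 was at −0.17 and not called (adjusted p = 0.0865 from limma). Psmd5 and Psmb5 have 1 probe set each. The second probe set of Psmc1 was dim, with a mean log2 signal of 3.27, and was at 0.03 between the stimulated genotypes.

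**Figure D5:**
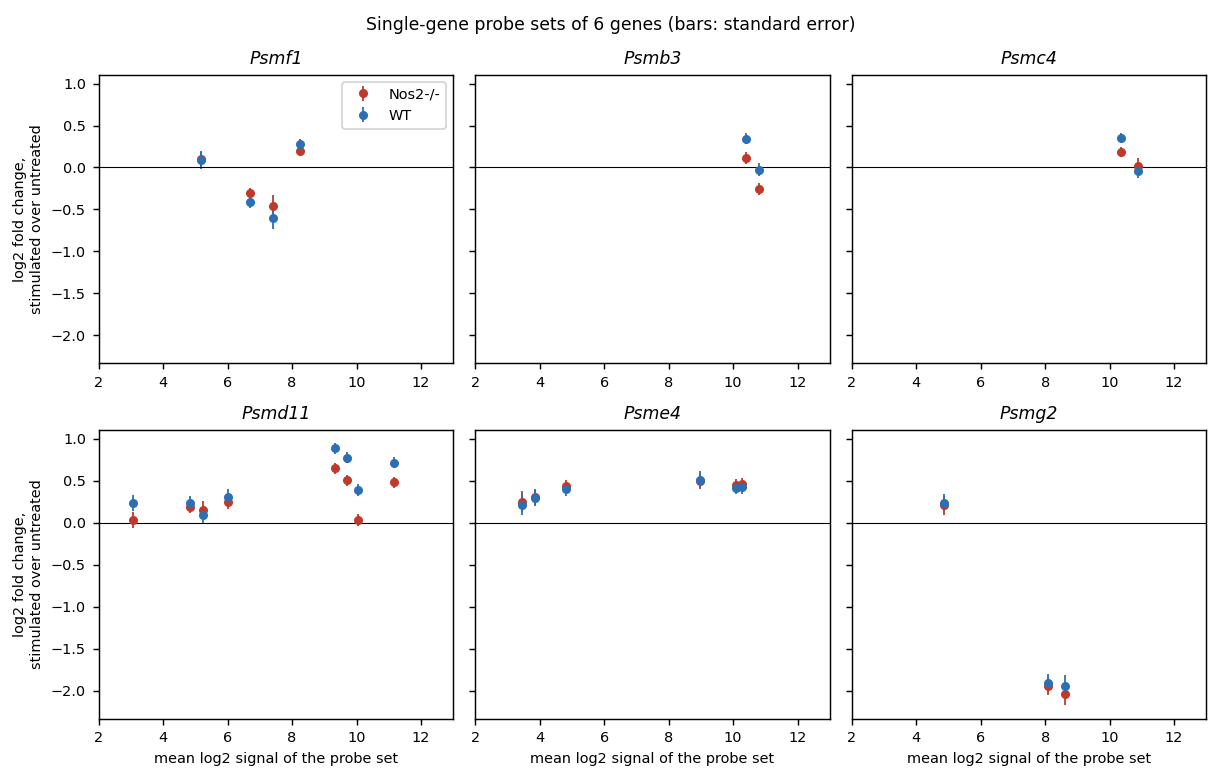
Log2 fold change of stimulated over untreated BMDMs (vertical axis) against the mean log2 signal of the probe set (horizontal axis) for every single-gene probe set of 6 proteasome genes, in Nos2-/- (red) and WT (blue), with bars of 1 standard error. The probe sets of Psmf1 lie on both sides of 0, those of Psme4 all lie above it, and of the 3 of Psmg2 the 2 brighter fell while the dimmest lies above 0.

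Genes that work beside the constitutive particle were described from a list of 37, of which 27 had a probe set of their own. Beside their counts of rises and falls stand the shares over all genes, 26.3% higher and 28.2% lower in Nos2-/- BMDMs. In WT BMDMs these shares were 29.6% and 28.4%. The 4 measured genes of the immunoproteasome and the PA28 activator rose in both genotypes, with medians of 1.51 in Nos2-/- and 1.45 in WT BMDMs. Among the constitutive genes, Psmd10 rose by a like amount (1.19 in Nos2-/- and 1.18 in WT BMDMs). Psmb8, which takes the place of Psmb5, averaged 12.98 ± 0.08 in stimulated Nos2-/-, 12.99 ± 0.02 in stimulated WT, 11.75 ± 0.04 in untreated Nos2-/- and 11.80 ± 0.06 in untreated WT BMDMs (log2 signal, SD, n = 3 each). Psmb9, which takes the place of Psmb6, averaged 11.94 ± 0.12 in stimulated Nos2-/-, 11.95 ± 0.06 in stimulated WT, 10.17 ± 0.05 in untreated Nos2-/- and 10.24 ± 0.11 in untreated WT BMDMs. Psmb10, which takes the place of Psmb7, averaged 12.82 ± 0.06 in stimulated Nos2-/-, 12.79 ± 0.05 in stimulated WT, 11.01 ± 0.08 in untreated Nos2-/- and 10.98 ± 0.10 in untreated WT BMDMs. For these 3 genes every stimulated array lay above every untreated one. Psme1, a PA28 subunit, rose by 1.11 in Nos2-/- and 1.15 in WT BMDMs, and Psme2 was not analysed here. Between the stimulated genotypes these 4 genes ran between −0.03 and 0.03, and none was called.

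Among the 7 other subunits and assembly factors measured, 2 rose and 3 fell in Nos2-/- BMDMs, and 1 rose and 3 fell in WT BMDMs. Uchl5, a deubiquitinase of the cap, fell most, by 1.47 in Nos2-/- and 1.34 in WT BMDMs. Ecpas, an adaptor of the particle, had log2 signals of 9.16, 9.09 and 8.99 in stimulated Nos2-/-, 9.37, 9.56 and 9.46 in stimulated WT, 8.83, 8.81 and 8.86 in untreated Nos2-/- and 8.87, 8.88 and 8.86 in untreated WT BMDMs. The stimulated Nos2-/- arrays lay between the stimulated WT and the untreated arrays. Set against WT, stimulated Nos2-/- BMDMs had less Ecpas signal, at −0.38 on the log2 scale (95% CI −0.53 to −0.24, adjusted p = 0.00499 from limma). The difference between the responses was not called for Ecpas, at −0.35 (adjusted p = 0.13 from limma).

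Of 10 shuttle factors and segregase genes, which bring ubiquitinated proteins to the proteasome, 4 rose and 5 fell in Nos2-/- BMDMs, and 5 rose and 3 fell in WT BMDMs. Between the stimulated genotypes, 2 of the 10 were called, both lower in Nos2-/- (1.91% of all genes were called lower). Sqstm1, a receptor for ubiquitinated cargo, had log2 signals of 12.31, 12.16 and 12.28 in stimulated Nos2-/-, 12.81, 12.72 and 12.75 in stimulated WT, 11.76, 11.74 and 11.89 in untreated Nos2-/- and 11.79, 11.78 and 11.83 in untreated WT BMDMs. Zfand2a, a stress-inducible protein that binds the cap, had log2 signals of 10.30, 10.15 and 10.16 in stimulated Nos2-/-, 10.86, 10.80 and 10.84 in stimulated WT, 10.70, 10.71 and 10.75 in untreated Nos2-/- and 10.71, 10.61 and 10.82 in untreated WT BMDMs. Stimulated Nos2-/- arrays of Sqstm1 were above the untreated and below the stimulated WT arrays, while those of Zfand2a were the lowest of all. The log2 fold change between the stimulated genotypes was −0.51 for Sqstm1 (adjusted p = 0.000598 from limma) and −0.63 for Zfand2a (adjusted p = 0.000128 from limma), and the difference between the responses was called for both, at −0.50 and −0.64. Among 6 genes of transcription factors and their processing, Nfe2l1, which drives proteasome genes when the proteasome is impaired, rose by 0.57 in Nos2-/- and 0.46 in WT BMDMs, and Nfe2l2, a regulator of antioxidant genes, rose by 0.68 in Nos2-/- and 0.40 in WT BMDMs. Ngly1, which processes the Nfe2l1 protein, fell by 0.46 in Nos2-/- and 0.58 in WT BMDMs. None of the 6 was called between the stimulated genotypes.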

How the data were processed

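RNA of 12 BMDM cultures was hybridised to Affymetrix Mouse Genome arrays. The deposited table holds log2 signals that the authors normalized by RMA in Partek, whose version is not given in the sources used here. Genes were named from the platform annotation, and only probe sets with a single gene were used, the brightest for each gene. Limma (3.58.1, R 4.3.3) was fitted with a mean per group on all 12 arrays, and p-values were Benjamini-Hochberg adjusted over the 18193 genes, with calls under 0.05 and no minimum fold. The methods name an analysis of variance at 1.5-fold and a false discovery rate of 0.5, which was tried as an alternative beside other scaling, probe set, variance and array choices. Tables and plots used Python 3.11.15, pandas 2.3.3 and matplotlib 3.10.9. The fit was checked on simulated data. Promoter windows came from RefSeq. The members, marker lists and related genes were chosen with earlier results of these data known. Signals on every array were given for the proteases, the 5 largest called rises and falls of each genotype, genes called between genotypes, Psme3, Psme4, Psmf1 and the Psmg genes, and means for the immunoproteasome genes where the rule asked for each array. Related genes without a probe set of their own, 10 of 37, were not analysed here.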

Additional observations from a re-analysis of the deposited data

Results flagged for a closer look

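The response of Psmd5, a chaperone of cap assembly, differed between the genotypes in the test of that difference itself. It was −0.64 on the log2 scale (Nos2-/- minus WT response, adjusted p = 0.00531 from limma), from responses of −0.02 in Nos2-/- and 0.62 in WT BMDMs. The 3 stimulated WT arrays lay above the other 9 arrays.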

How the results depend on the processing

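With each array centred on its median, 6 proteasome genes were called lower in Nos2-/- BMDMs (13 as reported), 5 lower in WT BMDMs (8 as reported) and 2 lower between the stimulated genotypes (4 as reported). The thresholds of the methods, which add a minimum fold, left 2 higher and 5 lower in Nos2-/- BMDMs, 5 higher and 5 lower in WT BMDMs and 1 lower between the stimulated genotypes. Between the stimulated genotypes, 1 was called lower with only the arrays compared, with fewer samples in the fit. For the difference between the responses, 3 were called lower with an intensity trend and 2 without genes below the median signal, with fewer genes tested (1 as reported). Leaving out 1 array in turn gave 17 to 20 higher and 10 to 13 lower in Nos2-/- BMDMs, 23 to 25 higher and 6 to 8 lower in WT BMDMs, 2 to 4 lower between the stimulated genotypes and 1 lower for the difference between the responses. Psmb5 lost its call between the stimulated genotypes without any 1 of 9 arrays, and Psmd11 without any 1 of 10 arrays.

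Among genes called as reported or under the alternative, direction turned for a few. With the mean of all probe sets, Psmf1 was at −0.12 in Nos2-/- and −0.16 in WT BMDMs, and Psmb3 and Psmc4 were at 0.16 each in WT BMDMs. With quantile normalization, Psme3 was at 0.16 in Nos2-/- BMDMs. Apart from the alternatives' construction named above, the cause was not tested. Of 4895 values of single genes under the alternatives, 4714 kept their side of the threshold and, where called, their direction. A further 146 lost and 30 gained a call, and 5 turned direction where called as reported or under the alternative. A turn of sign without a call in either fit was not counted. Of the reported calls, 7 of 33 in Nos2-/- BMDMs, 10 of 33 in WT BMDMs, 1 of 4 between the stimulated genotypes and 1 of 1 for the difference were made under all alternatives.

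Samples with the same replicate number did not deviate together in all pairs (correlations between −0.282 and 0.327, over 0.1 in 7 of 18 pairs). Pairs with different numbers ran between −0.265 and 0.292. These ranges do not settle whether the numbers pair the samples, and the reported fit used no pairing. With the replicate block, 2 genes were called lower between the stimulated genotypes, 20 were higher and 12 lower in Nos2-/- BMDMs and 25 higher and 7 lower in WT BMDMs. Signals near background limit Psma8 and Psmb11, which lie below the median of all genes.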
